A study of Mus musculus with 12 samples.

Results

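Alpha chains of the mouse T cell receptor were selected whose V segment carries a double name, TRAV for the alpha chain and DV for the delta chain. In all, 432 productive alpha contigs in 423 cells met this rule, among 19419 contigs of every kind and beside 6050 other productive alpha contigs. They used 10 segments, called DV segments below. A separate small class held 22 contigs in which a delta-only segment (TRDV) was joined to a TRAJ segment. Receptor libraries were prepared from sorted CD45+ leukocytes of C57BL/6 mice with the 5xFAD transgenes (5xFADTg) or without them (NonTg). The 5xFAD line is a mouse model of amyloid deposition whose transgenes are driven by the Thy1 promoter, which is active in neurons. There were 2 NonTg and 2 5xFADTg libraries of brain parenchyma and 1 meningeal library of each genotype. The labels give no age and tie no library to an animal, so the p-values below measure only the spread between these libraries, which may be technical.

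The alpha and delta genes share one locus: the delta D, J and C segments lie between the V segments and the TRAJ segments. A DV segment can be joined to a delta D segment, which gives a delta chain, or to a TRAJ segment, which gives an alpha chain and deletes the delta genes in between. Alpha rearrangement proceeds in rounds, the first of which tend to join V segments near the delta genes to the TRAJ segments nearest to them, those with high numbers, and later rounds reach farther out on both sides.

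All 13 DV and TRDV names matched a gene of GENCODE M21 (GRCm38, the assembly called mm10), where they lie on the plus strand of chromosome 14. The 7 DV segments with at least 10 clonotypes are, from the farthest to the nearest to TRDV1, TRAV15D-1-DV6D-1 (chr14:52863299-52863936), TRAV16D-DV11 (chr14:53047287-53047821), TRAV14D-3-DV8 (chr14:53078452-53079045), TRAV4-4-DV10 (chr14:53683647-53684177), TRAV6-7-DV9 (chr14:53709902-53710419), TRAV13-4-DV7 (chr14:53757356-53757921) and TRAV21-DV12 (chr14:53875984-53876752). The D in a name marks the copies of a duplicated stretch of the V region. TRDV1 starts at 53881612, only 5.63 kb 3' of TRAV21-DV12, and TRDV2-2 lies on the other side of it, at 53960944. The bases that each germline segment brings into the CDR3, the loop that is built at the join, are shown because a rearrangement with one of these segments starts with them, up to the point where they were trimmed:

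TRAV15D-1-DV6D-1: tgtgctctctgggagctgg
TRAV16D-DV11: tgtgctatgagagaggg
TRAV14D-3-DV8: tgtgcagcaagtg
TRAV4-4-DV10: tgtgctgctgagg
TRAV6-7-DV9: tgtgctctgagtga
TRAV13-4-DV7: tgtgctatggaac
TRAV21-DV12: tgtatcctgagagtag
TRDV1: tgtggagggaaag
TRDV2-2: tgtgctctcatggagcgc

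Each of the segments listed begins with the codon of the conserved cysteine, here tgt. TRDV1 follows it with gga, where every DV segment listed except TRAV21-DV12 has gct or gca. Over the last 270 bases, TRAV15D-1-DV6D-1 was identical to TRAV15N-1, a copy without a DV name, so the deposited name cannot tell the copies apart. The other 6 differed from their nearest relative, from 98.9% identity for TRAV16D-DV11 and TRAV16N to 65.2% for TRAV21-DV12 and TRAV2. Of 251 combinations of TRAJ and CDR3 listed under a DV name, 5 were also listed under a name without DV, so a small part of the assignments is uncertain.

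Clonotypes were counted in cells with exactly 1 productive beta chain, as the pair of CDR3 nucleotide sequences of the beta chain and of the alpha chain with most unique molecular identifiers (UMIs, tags of single cDNA molecules). Of the 432 contigs, 309 were the leading alpha of such a cell, 44 were a further alpha, 62 lay in cells with 2 or more beta chains and 17 in cells without one. The 309 cells formed 219 clonotypes of 3108 in all, or 7.05% (95% exact Clopper-Pearson interval 6.17 to 8.0). Libraries held 15827899 to 26710709 reads, 49997 to 128700 UMIs and 286 to 784 clonotypes, with the fewest in the meninges. Pairs of libraries shared 0 to 4 cell barcodes, of 425 to 2122 per library.

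DV segments supplied between 5.21% and 8.52% of the clonotypes of a library. In NonTg parenchyma the share of clonotypes was 7.26% (44 of 606) and 8.46% (38 of 449). In 5xFADTg parenchyma it was 8.52% (56 of 657) and 5.36% (42 of 784), so that the NonTg values lay between the 5xFADTg ones. In the meninges it was 7.69% (22 of 286) for NonTg and 5.21% (17 of 326) for 5xFADTg. The intervals of all 6 libraries overlapped. The means were 7.86% ± 0.850 (SD, n = 2) in NonTg and 6.94% ± 2.24 (SD, n = 2) in 5xFADTg parenchyma, a difference of -0.92 percentage points (exact two-sided permutation p = 1, where the smallest possible is 0.333). Meninges had 6.45% ± 1.75 (SD, n = 2) and parenchyma 7.40% ± 1.48 (SD, n = 4), a difference of -0.95 points (exact permutation p = 0.533, smallest possible 0.133). Leaving out 5xFADTg parenchyma 2 turned the genotype difference to 0.66 points, and leaving out 5xFADTg meninges turned the tissue difference to 0.29. Without TRAV6-7-DV9 the tissue difference was -0.15 points and the genotype difference -0.81. With all segments kept, the genotype difference was -1.54 points over cells and -0.42 with at least 2 UMIs per chain.

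**Figure D1:**
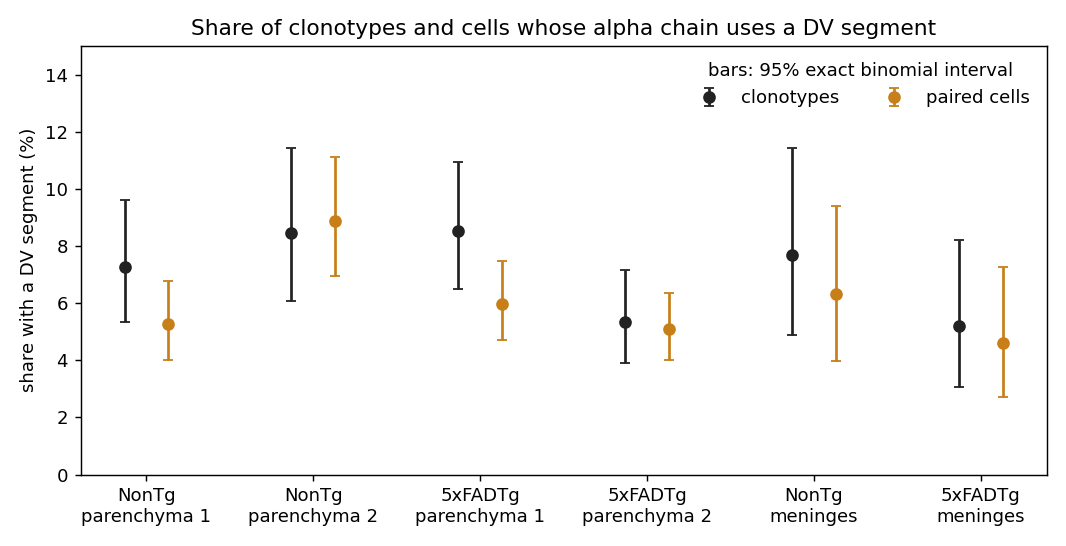
Share (%) of clonotypes (black) and of paired cells (orange) whose leading alpha chain uses a DV segment in each of the 6 libraries, with 95% exact binomial intervals. NonTg parenchyma 2 has the highest cell share, 8.88%, and there the cell share lies above the clonotype share.

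Counted over cells, NonTg parenchyma had DV shares of 5.27% (56 of 1063) and 8.88% (68 of 766). The 5xFADTg parenchyma had 5.97% (72 of 1206) and 5.09% (74 of 1453), and the shares were 6.30% (22 of 349) in NonTg and 4.59% (17 of 370) in 5xFADTg meninges. One clonotype of 22 cells lifted NonTg parenchyma 2, whose share was 6.18% (46 of 744) without it.

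The 7 segments were used unevenly. TRAV6-7-DV9 led with 62 clonotypes and 97 cells, followed by TRAV4-4-DV10 (38 and 48), TRAV21-DV12 (28 and 41), TRAV14D-3-DV8 (27 and 33), TRAV16D-DV11 (25 and 27), TRAV13-4-DV7 (23 and 24) and TRAV15D-1-DV6D-1 (10 and 31). Of the rest, TRAV15-2-DV6-2 had 3 clonotypes, TRAV15D-2-DV6D-2 had 2 and TRAV15-1-DV6-1 had 1. All clonotypes of families TRAV15 and TRAV21 were DV, whereas DV segments were 29.7% of TRAV4, 14.3% of TRAV16, 13.9% of TRAV6, 9.58% of TRAV13 and 9.51% of TRAV14 clonotypes.

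TRAV6-7-DV9 held 2.48% and 2.0% of clonotypes in NonTg parenchyma, 2.44% and 1.79% in 5xFADTg parenchyma, 1.75% in NonTg and 0.92% in 5xFADTg meninges. It was the most used DV segment in each of the 4 parenchyma libraries. In NonTg meninges TRAV4-4-DV10 was ahead with 7 clonotypes against 5, and in 5xFADTg meninges TRAV14D-3-DV8 with 6 against 3. These counts are too small to order the segments within the meninges.

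**Figure D2:**
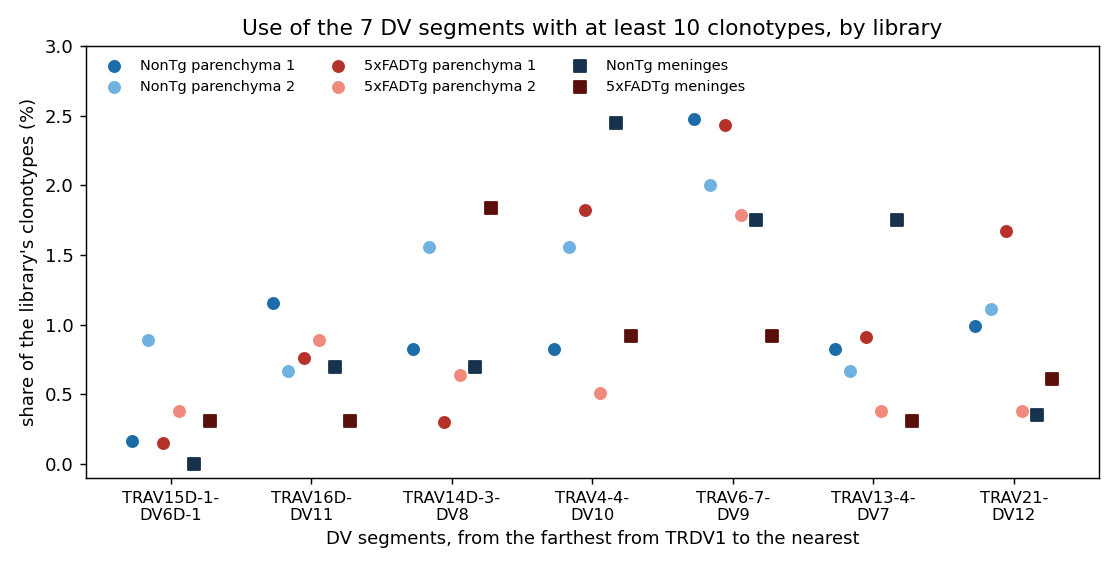
Share (%) of each library's clonotypes that used each of the 7 DV segments with at least 10 clonotypes, 1 point per library (circles parenchyma, squares meninges). In parenchyma the genotypes overlap for every segment shown except TRAV14D-3-DV8, which lies at 0.825% and 1.56% in NonTg and 0.304% and 0.638% in 5xFADTg, and NonTg meninges has no TRAV15D-1-DV6D-1 clonotype.

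No difference in the use of a DV segment was detected between genotypes or tissues. In edgeR's quasi-likelihood test on clonotypes per segment, 0 of the 6 DV segments tested passed an adjusted p of 0.05 between 5xFADTg and NonTg parenchyma, where 0% of all 146 V and J segments did. At an unadjusted p under 0.05 there were 0 of the 6 and 6 of the 146, and DESeq2 gave 0 calls. The log2 differences ran from -1.19 (SE 0.60) for TRAV14D-3-DV8 to -0.03 (SE 0.68) for TRAV4-4-DV10, with edgeR adjusted p between 0.936 and 0.988. TRAV14D-3-DV8 was at 0.825% and 1.56% of clonotypes in NonTg and at 0.304% and 0.638% in 5xFADTg parenchyma, the only DV segment tested whose genotypes did not overlap. Between meninges and parenchyma 0 of 7 passed, where 0% of 152 segments did. There 0 of the 7 and 10 of the 152 had an unadjusted p under 0.05, and DESeq2 gave 0 calls. The log2 differences ran from -1.05 (SE 1.34) for TRAV15D-1-DV6D-1 and -0.996 (SE 0.78) for TRAV21-DV12 to 0.74 (SE 0.62) for TRAV14D-3-DV8, each with an edgeR adjusted p of at least 0.893. TRAV6-7-DV9, the most used, had -0.13 (SE 0.31) between genotypes and -0.73 (SE 0.48) between tissues.

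DV chains differed from other alpha chains in the TRAJ segments they were joined to. Segments TRAJ61 to TRAJ31, the part of the TRAJ region nearer to the delta genes, were used by 72.6% of DV clonotypes (159 of 219) and by 44.6% of other clonotypes. In NonTg parenchyma the DV share was 72.7% and 60.5%, against 49.8% and 41.8% of other clonotypes. In 5xFADTg parenchyma it was 76.8% and 73.8%, against 44.9% and 42.3%. It was 90.9% against 44.7% in NonTg meninges and 58.8% against 43.4% in 5xFADTg meninges, where there were only 17 DV clonotypes. The DV value was higher in 6 of 6 libraries, by 27.8 percentage points ± 11.2 (SD, n = 6; exact sign-flip permutation p = 0.0312, the smallest that 6 libraries allow). Adjusted by Benjamini-Hochberg over the 8 library-level tests made here it was 0.25, a level that 1 smallest p among 8 cannot go below. With each alpha rearrangement counted once per library the difference was 26.3 points.

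That preference followed where each DV segment lies. TRAV13-4-DV7, 124 kb from TRDV1, used TRAJ61 to TRAJ31 in 23 of 23 clonotypes, with a mean TRAJ number of 49.4. TRAV21-DV12, the nearest, did so in 25 of 28 (mean 44.8), TRAV6-7-DV9, at 172 kb, in 58 of 62 (mean 42.7) and TRAV4-4-DV10, at 198 kb, in 33 of 38 (mean 39.7). By contrast TRAV14D-3-DV8, at 803 kb, used them in 4 of 27 (mean 21.5) and TRAV16D-DV11, at 834 kb, in 8 of 25 (mean 26.9). The 95% exact intervals of the 4 near segments lay at or above 71.8% and those of these 2 far segments at or below 53.5%.

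TRAV15D-1-DV6D-1, at 1018 kb, stood apart from both with 5 of 10 clonotypes and a mean of 34.7. Of its 10 clonotypes 4 carried the same alpha rearrangement to TRAJ15, in NonTg parenchyma 2. Over its 7 distinct alphas the mean was 43.1. The 1018 kb hold for the deposited name only, which cannot tell this segment from TRAV15N-1.

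**Figure D3:**
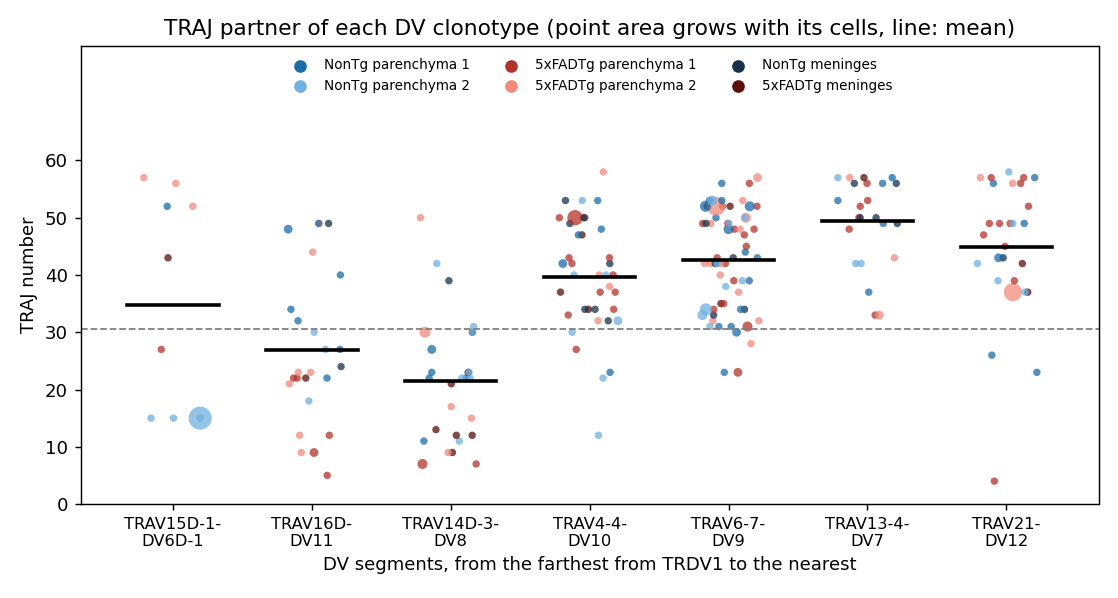
TRAJ number of every DV clonotype, for the 7 segments ordered by distance from TRDV1, with colours for libraries, point area growing with the number of cells, a line at each mean and a dashed line below TRAJ31. The 4 segments nearest to TRDV1 have means of 39.7 to 49.4, and those at 803 and 834 kb have means of 21.5 and 26.9.

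TRAV segments without a DV name showed the same order. Across the 76 TRAV segments with at least 10 clonotypes, distance from TRDV1 and mean TRAJ number were related with Pearson's r = -0.69 and Spearman's rho = -0.66, as a description only, since segments share libraries. For the 69 segments without DV r was -0.67. Most DV segments had means close to those of their neighbours. TRAV6-7-DV9 (mean TRAJ number 42.7) lies between TRAV7-6 (45.0) and TRAV5-4 (42.4). TRAV13-4-DV7 (49.4) lies between TRAV14-3 (48.0) and TRAV16 (45.1), and TRAV4-4-DV10 (39.7) between TRAV5-4 (42.4) and TRAV9-4 (40.3). Far from TRDV1, TRAV14D-3-DV8 (21.5) and TRAV16D-DV11 (26.9) lie between TRAV6N-5 (24.5) and TRAV8D-2 (22.6). At the position of its deposited name, TRAV15D-1-DV6D-1 (34.7) was above both of its neighbours, TRAV4D-3 (23.1) and TRAV14D-1 (24.8). TRAV21-DV12 (44.8) was below its only one, TRAV19 (50.5).

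**Figure D4:**
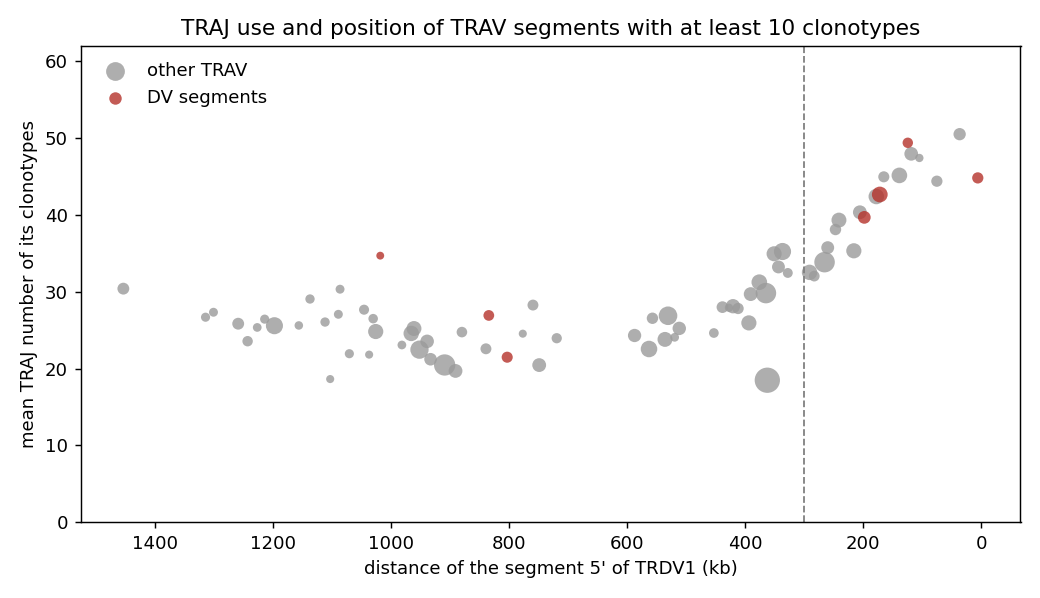
Mean TRAJ number of the clonotypes of each TRAV segment with at least 10 clonotypes, against its distance 5' of TRDV1 in kb (point area grows with clonotypes, red DV, grey other, dashed line at 300 kb). DV segments lie among the other segments at like distances, except TRAV15D-1-DV6D-1 with 34.7 at 1018 kb. That mean rests on only 10 clonotypes, and the position is taken from its deposited name.

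Among segments within 300 kb of TRDV1, a limit chosen after the data had been seen, 91.6% of DV (141 of 154) and 77.8% of other clonotypes (536 of 689) used TRAJ61 to TRAJ31. The difference within libraries was 14.8 points (exact sign-flip p = 0.0312, DV higher in 6 of 6 libraries). Within this window the DV segments lie nearer to TRDV1, with a median of 172 kb over 151 clonotypes against 216 kb over 688 (segments with at least 10 clonotypes), and the part of this distance in the difference was not tested. Beyond 300 kb the shares were 27.7% (18 of 65) and 34.2%, and the difference was -6.78 points (exact sign-flip p = 0.438). The order could also be read within families. TRAV6 clonotypes used TRAJ61 to TRAJ31 in 93.5% with TRAV6-7-DV9 and in 39.1% with other TRAV6 segments. For TRAV14 the order was turned, with 14.8% for the distant TRAV14D-3-DV8 and 51.0% for other TRAV14.

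Single TRAJ segments were then compared between DV and other clonotypes with library as block. Of 76 TRAJ, TRBV and TRBJ segments 6 passed edgeR's test (7.89%), 4 of them higher in DV clonotypes (5.26%) and 2 lower (2.63%). TRAJ57 rose from 1.11% to 4.57% of clonotypes (log2 difference 1.98, SE 0.60, edgeR adjusted p = 0.0321). TRAJ50 rose from 1.38% to 5.02% (1.80, SE 0.57), TRAJ52 from 1.52% to 5.02% (1.71, SE 0.56) and TRAJ42 from 2.15% to 6.39% (1.56, SE 0.50), each with the same edgeR adjusted p of 0.0321. TRAJ18, the segment of the invariant alpha chain of natural killer T cells, was used by 1 DV clonotype and by 205 others (log2 difference -3.72, SE 0.91, edgeR adjusted p = 0.00406). The invariant chain uses TRAV11, which has no DV name, so the selection rule places all such chains among the others. TRAJ26 was used by 1 and by 134 (-3.19, SE 1.02, edgeR adjusted p = 0.0321).

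These calls depended on settings. DESeq2 called 2 of the 6, TRAJ18 and TRAJ26, and TMM factors kept the same 2 and called 3 in all. With cells in place of clonotypes 4 of the 6 passed, and TRAJ57 (log2 difference 0.71, edgeR adjusted p = 0.548) and TRAJ42 (0.76, edgeR adjusted p = 0.515) did not. Without iNKT-like and MAIT-like clonotypes 0 passed in edgeR, where the smallest adjusted p among the 6 was 0.0574. TRAJ18 then had a log2 difference of -1.53 (edgeR adjusted p = 0.497). Without 5xFADTg parenchyma 2 there were also 0 calls. Without 5xFADTg parenchyma 1 there were 2, of which only TRAJ18 was among the 6. Of the 6, 2 passed without 5xFADTg meninges and 3 without NonTg meninges. The most used TRAJ segment of DV clonotypes, TRAJ49, with 16 clonotypes (7.31% against 3.12%), did not pass (log2 difference 1.16, SE 0.48, edgeR adjusted p = 0.118). TRAJ34 and TRAJ56, with 10 DV clonotypes each, also did not pass.

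No beta segment passed that test. TRBV3 was the most used, with 29 DV clonotypes (13.2% against 7.86%, log2 difference 0.78, SE 0.32, edgeR adjusted p = 0.118, higher in 5 of 6 libraries). TRBV13-3 followed with 23 (10.5% against 7.30%), TRBV13-1 with 16 (7.31% against 6.58%) and TRBV20 with 12 (5.48% against 2.46%, edgeR adjusted p = 0.217). The name TRBV12-2+TRBV13-2, which spans 2 segments, was listed for 14 DV clonotypes (6.39% against 11.1%, edgeR adjusted p = 0.193). Among J segments TRBJ2-7 led with 55 clonotypes, followed by TRBJ1-1 with 26 and TRBJ2-1 with 23. The TRBJ1 cluster held 31.03% ± 6.33 of DV and 34.9% ± 2.0 of other clonotypes (SD, n = 6), a difference of -3.82 points (exact sign-flip p = 0.188, adjusted 0.375).

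The mean alpha CDR3 length of DV clonotypes lay above that of others in 4 of 4 parenchyma libraries and below it in both meningeal ones. In NonTg parenchyma the mean was 14.1 and 14.2 amino acids for DV clonotypes and 13.6 for others in both libraries. In 5xFADTg parenchyma it was 14.1 and 14.5, against 13.6 and 13.8. In the meninges they were 13.5 against 13.7 for NonTg and 13.6 against 13.8 for 5xFADTg. Over the 6 libraries the difference was 0.340 ± 0.394 (SD, n = 6; exact sign-flip p = 0.125, adjusted 0.375), and 0.550 over cells. Among segments with at least 10 clonotypes the mean ran from 13.04 amino acids for TRAV13-4-DV7 to 15.9 for TRAV15D-1-DV6D-1, which brings the most germline bases of these into the CDR3. Bases that matched neither germline segment numbered 2.95 on average in DV and 2.81 in other rearrangements.

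Expansion was next compared, an expanded clonotype being one with 2 or more cells in its library. DV segments were the leading alpha in 5.90% of expanded clonotypes (25 of 424) and in 7.23% of those seen in 1 cell (194 of 2684). In the parenchyma 8, 5, 6 and 6 DV clonotypes were expanded, in the order NonTg 1 and 2 and 5xFADTg 1 and 2. In the meninges 0 of 22 and 0 of 17 were, which allows up to 13.6% and 17.6%, beside 29 of 264 and 18 of 309 other clonotypes. The DV share of expanded minus 1-cell clonotypes was -2.69 points ± 3.75 (SD, n = 6), below 0 in 5 of 6 libraries (exact sign-flip p = 0.156, adjusted 0.375). It was -0.52 ± 1.72 in parenchyma (SD, n = 4) and -7.04 ± 2.15 in the meninges (SD, n = 2), where no DV clonotype was expanded. The value was -1.52 points without NonTg meninges, -1.64 with expansion from 3 cells and -1.17 with the deposited clonotype identifier. Without TRAV6-7-DV9, which supplied 12 of the 25 expanded clonotypes, it was -3.19 points (exact sign-flip p = 0.0312, not adjusted). That setting leaves out the only segment, of the 7 tested, with a positive log2 difference in expanded clonotypes. In both meningeal libraries the value was below 0 because no DV clonotype was expanded. This p-value therefore cannot tell whether expanded clonotypes used DV segments less.

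TRAV6-7-DV9 was listed for 2.83% of expanded and 1.86% of 1-cell clonotypes (log2 difference 0.54, SE 0.51, edgeR adjusted p = 0.732). The other 6 tested had log2 differences from -1.59 to -0.19. In edgeR's test 0 of 7 DV segments passed, where 1.32% of 152 segments did (2, TRAV11 and TRAJ18, both lower in expanded clonotypes). At an unadjusted p under 0.05 there were 0 of the 7 and 14 of the 152, and DESeq2 called 0 DV segments.

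Of the 219 DV clonotypes 194 had 1 cell, 10 had 2, 8 had 3, and 7 had 4 or more. The 7 alpha chains found in most cells of 1 library are shown because they held many of the DV cells, with capitals for bases that match neither the V nor the J germline sequence:

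TRAV15D-1-DV6D-1 to TRAJ15: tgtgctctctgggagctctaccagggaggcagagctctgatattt
TRAV15-2-DV6-2 to TRAJ2: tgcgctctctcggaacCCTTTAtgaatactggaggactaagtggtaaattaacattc
TRAV21-DV12 to TRAJ37: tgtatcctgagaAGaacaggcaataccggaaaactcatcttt
TRAV6-7-DV9 to TRAJ52: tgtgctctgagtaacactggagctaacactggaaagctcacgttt
TRAV4-4-DV10 to TRAJ50: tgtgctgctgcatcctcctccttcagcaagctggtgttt
TRAV6-7-DV9 to TRAJ31: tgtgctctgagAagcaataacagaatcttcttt
TRAV6-7-DV9 to TRAJ34: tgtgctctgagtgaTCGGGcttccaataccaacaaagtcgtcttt

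The first was found in 37 cells of NonTg parenchyma 2, 32 of which held the beta chain TRBV12-1 to TRBJ2-3. It had no unmatched base, and 26 of the cells also held a second productive alpha, TRAV9D-3 to TRAJ22. It formed the 22-cell clonotype, 32.4% of the paired DV cells of that library. The second was found in 30 cells of 5xFADTg parenchyma 1, of which 27 carried 2 productive beta chains, TRBV20 and TRBV19, both joined to TRBJ1-1. Only 3 of the 30 therefore entered the clonotypes. A wider count took all cells with a productive alpha and counted a DV segment in any of their alphas. It gave a DV share of 9.13% (125 of 1369) in that library. The 5.97% (72 of 1206) given above counts paired cells by their leading alpha only. The shares thus differ both in the cells and in the measure.

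The next alphas were smaller. TRAV21-DV12 to TRAJ37 was found in 16 cells of 5xFADTg parenchyma 2, all with TRBV3 to TRBJ1-4, and as 1 cell in the 5xFADTg meninges. TRAV6-7-DV9 to TRAJ52 was found in 14 cells of the same parenchyma library, all with TRBV13-3 to TRBJ2-1. TRAV4-4-DV10 to TRAJ50 was found in 12 cells of 5xFADTg parenchyma 1 and TRAV6-7-DV9 to TRAJ31 in 9 cells of that library. TRAV6-7-DV9 to TRAJ34 was found in 5 cells of NonTg parenchyma 2 and 1 cell of NonTg meninges. Each of these expanded chains came from 1 parenchyma library.

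No difference was detected between leading and second alphas. Among 464 paired cells with 2 or more productive alphas, DV segments were the leading chain in 49 and the second in 44. Combinations of a beta and an alpha pair with a DV chain occurred in 2 or more cells 8 times. In 7 of these 8 the leading alpha differed between cells (35 cells), so cells of 1 combination can fall into different clonotypes. The share among second minus leading chains was -0.53 points ± 8.603 (SD, n = 6; exact sign-flip p = 0.969). Leaving out NonTg parenchyma 2, where the 22-cell clonotype lies, turned it to 2.84 points. Median UMIs of the leading alpha were 46.5, 76.5, 53 and 32 for DV cells of the parenchyma, in the order given above, and 49, 58.5, 50 and 34 for other cells. They were 38 against 77 in NonTg and 69 against 51 in 5xFADTg meninges. The mean log2 ratio was -0.05 ± 0.53 (SD, n = 6; exact sign-flip p = 0.844).

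Some meningeal DV clonotypes recurred in parenchyma of the same genotype. For NonTg these were 6 of 22 (27.3%, 95% exact interval 10.7 to 50.2), beside 60 of 264 other clonotypes (22.7%). For 5xFADTg they were 2 of 17 (11.8%, 1.46 to 36.4), beside 42 of 309 (13.6%). The 8 recurring DV clonotypes used TRAV4-4-DV10 (to TRAJ42 and TRAJ53), TRAV6-7-DV9 (to TRAJ34 and TRAJ43), TRAV16D-DV11 (to TRAJ22 and TRAJ49), TRAV13-4-DV7 (to TRAJ56) and TRAV21-DV12 (to TRAJ37), each with 1 cell in the meninges. Of 251 distinct DV alpha rearrangements 14 were in 2 libraries (5.58%, beside 5.53% of others in 2 or more). Most of the 14, among them the alphas of the 8 clonotypes above, also had the same beta in both libraries. They are thus largely the same alpha and beta pairs again. Whether each such pair is 1 clone was not tested. Only 1 of the 14 crossed genotypes, TRAV13-4-DV7 to TRAJ50, with different betas.

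One beta motif recurred with TRAV6-7-DV9 and is described without a test, since it was chosen after its values were seen. Among clonotypes with TRBV3 joined to TRBJ1-3, 12 had beta CDR3s that end in the same 10 amino acids. Part of that ending comes from TRBJ1-3, which all of them share by this choice. The length of that part was not measured. The 12 held 7 different beta nucleotide sequences, so some betas are counted more than once. TRAV6-7-DV9 was the alpha of 6 of these 12, beside 0 of the 10 other TRBV3 to TRBJ1-3 clonotypes and 1.99% of all clonotypes. The 6 came from 3 parenchyma libraries and used 6 different TRAJ segments. They had 4 different beta nucleotide sequences, shown with capitals for the 3 codons that begin the shared ending, of which the first and the second are spelled in different ways and the last is CGT in each:

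5xFADTg parenchyma 1, with TRAJ31 and TRAJ56: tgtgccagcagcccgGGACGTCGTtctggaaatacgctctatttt
5xFADTg parenchyma 2, with TRAJ37 and TRAJ32: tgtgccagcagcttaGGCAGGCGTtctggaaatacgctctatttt
5xFADTg parenchyma 2, with TRAJ57: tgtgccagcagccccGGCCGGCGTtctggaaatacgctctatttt
NonTg parenchyma 1, with TRAJ48: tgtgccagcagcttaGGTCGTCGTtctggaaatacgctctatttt

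The capitals spell glycine, arginine and arginine in each. For the clone with TRAJ31, the alpha and beta occurred together in 9 cells, of which 8 had a further productive alpha and 3 counted as its clonotype.

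TRDV segments were joined to TRAJ in 22 contigs, 15 with TRDV1 and 7 with TRDV2-2. All 22 had the alpha constant segment TRAC and were full length, and 17 had a CDR3, of 12 to 18 codons. None was listed as productive, like the other contigs that mix chain types. They lay in 21 cells, 14 of the contigs in 5xFADTg parenchyma, 5 in NonTg parenchyma and 3 in the meninges. Of the 22, 18 (81.8%, 95% exact interval 59.7 to 94.8) used TRAJ61 to TRAJ31, as the DV segments near TRDV1 did. Examples with many UMIs show the germline TRDV bases at the start and unmatched bases in capitals:

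TRDV1 to TRAJ44, NonTg meninges, 222 UMIs: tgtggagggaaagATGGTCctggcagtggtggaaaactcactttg
TRDV1 to TRAJ56, 5xFADTg parenchyma 1, 142 UMIs: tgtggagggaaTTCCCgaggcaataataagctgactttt
TRDV2-2 to TRAJ58, 5xFADTg parenchyma 1, 140 UMIs: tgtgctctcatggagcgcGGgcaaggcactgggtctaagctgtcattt
TRDV1 to TRAJ47, NonTg parenchyma 1 and meninges, 3 to 71 UMIs: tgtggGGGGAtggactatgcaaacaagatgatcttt

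Each of the 21 cells had exactly 1 productive beta chain, and 10 had no productive alpha (47.6%, 95% exact interval 25.7 to 70.2), beside 17.9% of all 6826 cells with a beta chain. This interval pools the libraries and also treats the cells with the TRDV1 to TRAJ47 sequence as separate draws. In the 11 cells that had a productive alpha, that alpha had 1 to 6 UMIs (median 4), whereas the median over all cells was 45. The TRDV contig had more UMIs in 9 of the 11. Over all 22 contigs its UMIs ranged from 3 to 222, with a median of 65.

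**Figure D5:**
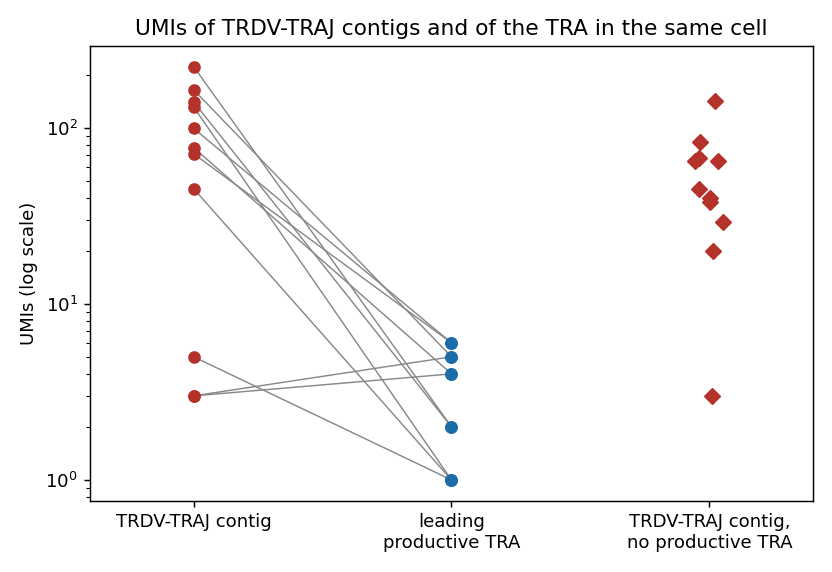
UMIs (log axis) of the TRDV to TRAJ contig and of the leading productive alpha in the same cell, joined by a line for the 11 cells with both, and of the contigs in cells without a productive alpha (diamonds). In 9 of 11 cells the TRDV contig lies above the alpha, which had at most 6 UMIs.

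The TRDV1 to TRAJ47 sequence occurred in 2 cells of NonTg parenchyma 1 and 1 of NonTg meninges, each with the TRBV3 to TRBJ1-3 beta printed above for NonTg parenchyma 1. In both parenchymal cells the productive alpha was TRAV6-7-DV9 to TRAJ48, with 6 and 4 UMIs. Under the clonotype rule they count as TRAV6-7-DV9, and the meningeal cell, which had no productive alpha, counts as none. In the opposite combination, 1 contig of 5xFADTg parenchyma 2 joined TRAV21-DV12 to TRDJ1, with 105 UMIs. It was listed with the alpha constant segment TRAC and was not listed as productive.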

How the data were processed

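The deposited contig tables list V, J and C segments, CDR3 sequences and, per the file headers, raw counts of reads and UMIs. Per the labels' protocols the libraries were made with a Chromium Single Cell Immune Profiling kit, and Cell Ranger 6.0 and the mm10 build are named per the submitters' processing notes. Doublet removal is not given in the sources used here, and cells with 2 or more TRB were left out of clonotypes. Gene expression libraries of the series were not analysed here.

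Shares per library were compared with two-sided exact permutation or sign-flip tests. Clonotypes per segment (at least 10, library size the number of clonotypes) were tested with edgeR 4.0.16 in R 4.3.3, with DESeq2 1.42.0 as an alternative, and both the exact tests and the edgeR fits were tested on simulated data. Standard errors are the log2 difference over the root of F. iNKT-like means TRAV11 with TRAJ18 and 15 amino acids, MAIT-like TRAV1 with TRAJ33 and 12. Intervals and limits from a count of 0 (3 counts) cover counting error only. Germline bases and positions came from GENCODE M21. Named were all DV and TRDV segments, the TRAJ, TRBV and TRBJ segments most used by DV clonotypes, partner segments past the threshold, the largest DV clonotypes and those in 2 libraries. The members and lists were chosen with earlier results of these data known.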

Additional observations from a re-analysis of the deposited data

Results flagged for a closer look

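The alpha CDR3 length of DV minus other clonotypes was above 0 in each of the 4 parenchyma libraries and below 0 in both meningeal ones. The means were 0.589 ± 0.0943 amino acids (SD, n = 4) and -0.159 ± 0.0644 (SD, n = 2), and the difference between tissues was 0.748 (exact permutation p = 0.133, the smallest possible, and 0.8 adjusted over the 12 such differences computed). The meningeal values rest on 22 and 17 DV clonotypes.

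Data outside the clonotypes also held DV chains. There were 142 nonproductive alpha contigs with a DV segment, 24.7% of 574 (95% exact interval 21.3 to 28.5), beside 22.03% of 7759 other alpha contigs. By segment the share was 8.33% for TRAV15D-1-DV6D-1, 16.3% for TRAV14D-3-DV8 and 22.9 to 27.1% for the other 5 with at least 10 clonotypes. By library it ranged from 15.2% in NonTg parenchyma 2 to 34.8% in 5xFADTg parenchyma 2 for DV, and from 17.9% to 24.6% for other contigs. Contigs of 1 clone are counted more than once in these shares. The alpha TRAV15D-1-DV6D-1 to TRAJ15 of NonTg parenchyma 2 supplied 37 of the 44 productive contigs of its segment. It also supplied 37 of the 89 productive DV contigs of that library. Another 62 DV contigs lay in cells with 2 or more beta chains, 27 of them the TRAV15-2-DV6-2 alpha of 5xFADTg parenchyma 1.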

How the results depend on the processing

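The number of clonotypes per segment limits all tests, and V copies of near-identical sequence limit the names. Alternatives for windows, all cells with an alpha, distinct rearrangements, second chains and the parenchyma alone were chosen after seeing the data. Of the library-level results and counts of calls, 113 values under alternatives stayed the same, 14 moved, 8 reversed, 6 were weaker and 1 was stronger. For single segments 213 stayed the same, 37 were weaker and 20 reversed. The same means an unchanged direction and side of the threshold, also where neither setting passed it. For counts of calls it means an equal or similar count. The cause of the changes below was not tested.

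In the labels, libraries with the same replicate number share only that number, and the correlation of their deviations was -0.00568 over 146 segments. Whether they share a batch was not tested. With the replicate block the genotype difference of -0.92 points cannot change, by arithmetic, although it is counted above as the same. In the segment fits with this block 0 segments were called, and TRAV21-DV12 turned to a log2 difference of 0.016 and TRAV4-4-DV10 to 0.034.

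Expanded minus 1-cell DV share was -3.19 points without TRAV6-7-DV9 (exact sign-flip p = 0.0312, not adjusted and with the limits given above). The TRAJ61 to TRAJ31 difference was -6.78 points beyond 300 kb. UMIs per cell gave a log2 ratio of 0.068 with at least 2 UMIs per chain. Second minus leading chains gave 0.54 points without TRAV6-7-DV9 and 2.61 with each combination once. Between genotypes, cells in place of clonotypes gave 2 calls (neither a DV segment), 0.56 for TRAV21-DV12 and 0.26 for TRAV4-4-DV10 (log2), and TRAV4-4-DV10 was at 0.0046 without iNKT-like and MAIT-like clonotypes. Between tissues 1 segment was called without a count filter. With expansion there were 5 calls under TMM, 1 with expansion from 3 cells and 0 without iNKT-like and MAIT-like clonotypes. There TRAV15D-1-DV6D-1 was at 0.047 in DESeq2 and 0.42 from 3 cells, and TRAV14D-3-DV8 at 0.24 from 3 cells. Partner calls numbered 3 under TMM, 2 in DESeq2 and 0 without iNKT-like and MAIT-like clonotypes.

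Leaving out 1 library at a time gave ranges of -2.50 to 0.66 points for genotype, -2.19 to 0.29 for tissue, -1.68 to 2.84 for second minus leading chains and -0.14 to 0.15 for the log2 UMI ratio. The TRAJ61 to TRAJ31 difference ranged from 24.1 to 30.2 points, each with an exact sign-flip p of 0.0625, the smallest for 5 libraries. Calls ranged from 0 to 1 between tissues (1 without NonTg parenchyma 2), 1 to 2 with expansion (1 without 5xFADTg parenchyma 2) and 0 to 6 for partners. Log2 differences between genotypes ranged from -0.95 to 0.26 for TRAV13-4-DV7, -0.46 to 0.31 for TRAV16D-DV11, -1.40 to 0.67 for TRAV21-DV12, -1.13 to 0.67 for TRAV4-4-DV10 and -0.34 to 0.10 for TRAV6-7-DV9. Between tissues they ranged from -0.98 to 1.18 for TRAV13-4-DV7, -0.68 to 1.87 for TRAV14D-3-DV8 and -0.27 to 1.09 for TRAV4-4-DV10, and TRAV15D-1-DV6D-1 was at 0.13 in the 1 fit that tested it. With expansion TRAV14D-3-DV8 ranged from -0.67 to 0.36.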
